A study of Rattus norvegicus with 26 samples.

Results

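The 39 Hox genes encode the homeodomain transcription factors that give the body axis its head-to-tail identity. Members were chosen by name, as the genes called Hoxa, Hoxb, Hoxc or Hoxd with a number, and kept where at least 1 read was counted in any library. This gave 37 genes of the 32883 in the count table, of which 26370 had a read. Hoxb13 and Hoxa13 had no read in any of the 26 libraries. Of the 37 members, 23 passed the filter on low counts and were tested, and the other 14 had between 1 and 89 reads in all libraries together. The Hox genes lie in 4 clusters, HoxA to HoxD, and genes with the same number in different clusters, called paralogs, descend from 1 ancestral gene. Within a cluster the order of the genes follows the order of their anterior limits along the embryo, so low numbers reach the hindbrain and cervical cord while high numbers are limited to caudal levels. In the spinal cord, paralogs 8 and 9 are known for the thoracic level and paralogs 10 and 11 for the lumbar level. Part of the code persists in adult neurons and in other cells of the trunk.

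RNA sequencing was performed on spinal cord of adult female Sprague-Dawley rats (250 g, postnatal day 70). Intact (n = 4) was the comparable segment of rats described as intact or sham; the labels do not separate the 2. In sub-SCI (n = 3) the cord was compressed at the T10 level with a 60 g aneurysm clip for 1 min and taken 7 days later, at the time of transplantation. The other injured rats received PBS (+PBS) or human umbilical cord mesenchymal stem cells (+MSC, hUC-MSCs) into the intrathecal space 7 days after injury and were studied at 1 week (+PBS-1w, n = 3; +MSC-1w, n = 3), 2 weeks (+PBS-2w, n = 2; +MSC-2w, n = 3) and 4 weeks post-transplantation (+PBS-4w, n = 4; +MSC-4w, n = 4). The study's methods describe the hUC-MSC and PBS injections and then daily cyclosporin A for rats throughout the experiment, without naming groups. Whether Intact and sub-SCI had it is not given in the sources used here. Each sample was a 5 mm segment centered on the lesion, so a small shift of the cut changes the level of cord sampled, and in such bulk tissue fewer cells of a type and less RNA per cell cannot be told apart. Libraries held 19496602 to 43468509 counted reads (median 26158978.5). In Intact the 10 listed transcription factors of forebrain and midbrain summed to 3.79 to 4.35 CPM (counts scaled to a common library size). Among them, Otx2 was at 0 counts in every library. The 14 listed homeobox genes of the dorsoventral neuron classes of the cord summed to 48.2 to 54.4 CPM in Intact.

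The Intact cord was dominated by Hox genes of the trunk. HoxB gave 51.4% of all Hox reads over the 26 libraries, HoxC 31.3%, HoxD 16.9% and HoxA 0.352%. Hoxa2, Hoxa4 and Hoxa11 stood in the annotation under more than 1 gene model, and how reads shared by such models were assigned is not given in the sources used here, so HoxA levels are uncertain. Levels of different genes were compared as CPM per kilobase of gene length. Hoxb8, a regulator of thoracic cord development, was highest in Intact at 66.5 ± 12.3 CPM per kilobase (SD, n = 4). Hoxb6 followed at 33.6 ± 4.12, and their ranges did not overlap. Hoxc8 (19.5 ± 2.32), Hoxd8 (18.2 ± 1.85), Hoxb7 (17.3 ± 2.23), Hoxc10 (15.2 ± 5.03), Hoxb3 (14.5 ± 1.05), Hoxb9 (12.96 ± 2.01) and Hoxb5 (11.8 ± 0.436) came next, and neighbours in this order lay within their spread.

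**Figure D1:**
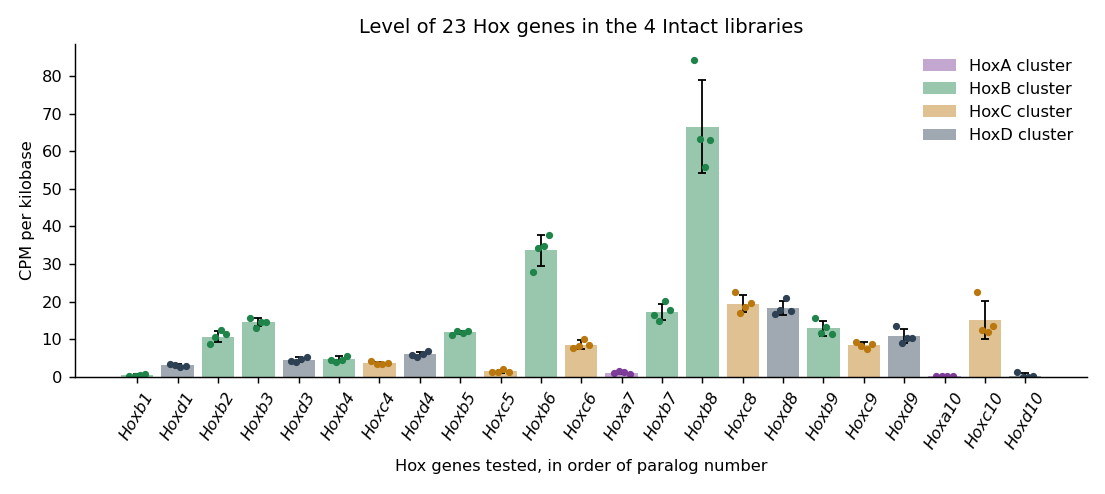
Level of the 23 tested Hox genes in the 4 Intact libraries as CPM per kilobase, ordered by paralog number and colored by cluster; bars are means, points are libraries and error bars are 1 SD. Hoxb8 (66.5) and Hoxb6 (33.6) stand above the rest, and Hoxd10 is near 0 except in 1 library.

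Among the anterior paralogs, the highest member of number 3 was Hoxb3, given above, and those of numbers 1, 2 and 4 were lower. Hoxd1 stood at 3.07 ± 0.383 CPM per kilobase, Hoxb2 at 10.7 ± 1.55 and Hoxd4 at 6.07 ± 0.632 in Intact. Paralogs 1 to 4 together made up 17.6% ± 1.33 of the summed per-kilobase Hox level in Intact (SD, n = 4), paralogs 5 to 8 made up 65.0% ± 1.39 and paralogs 9 to 13 made up 17.4% ± 2.41. Past paralog 10 almost nothing was counted. Hoxc11 reached at most 0.451 CPM and Hoxd11 0.601 CPM, both in +MSC-1w replicate 1.

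In sub-SCI, 11 of the 23 tested Hox genes fell against Intact and 1 rose (edgeR quasi-likelihood test, Benjamini-Hochberg adjusted p under 0.05 over 17990 genes), where 30.9% of all tested genes fell and 30.5% rose. The median log2 fold change was -0.63 over the tested members and -0.02 over all genes. The genes that fell were Hoxd1, Hoxd3, Hoxd4, Hoxb5, Hoxb6, Hoxa7, Hoxb8, Hoxd8, Hoxb9, Hoxd9 and Hoxa10, and Hoxb2, a gene of the hindbrain and anterior cord, rose. By cluster, 5 of 6 tested HoxD genes, 4 of 9 HoxB genes, both HoxA genes and 0 of 6 HoxC genes were called lower. Both HoxA genes had few reads. Hoxa10 had 4, 4 and 1 reads in sub-SCI and 11 to 16 in Intact, and Hoxa7 had 9, 4 and 6 reads and 12 to 23. P-values here measure the spread between the samples labelled as replicates.

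Hoxb8 had 82.02, 61.4, 54.2 and 61.3 CPM in the 4 Intact libraries and 18.9, 25.2 and 8.88 CPM in the 3 sub-SCI libraries. All sub-SCI libraries were below all Intact ones (log2 fold change -1.87, SE 0.47, adjusted p = 0.00147). Hoxb9, which patterns the lower thoracic region, had 14.7, 10.9, 12.4 and 10.6 CPM in Intact and 3.401, 4.096 and 2.41 CPM in sub-SCI, again without overlap (log2 fold change -1.88, SE 0.43, adjusted p = 0.000693). Hoxb5 had 17.3, 18.7, 17.99 and 18.7 CPM in Intact, a tight group, and 7.73, 8.92 and 7.43 CPM in sub-SCI (log2 fold change -1.18, SE 0.27, adjusted p = 0.000628). The lowest adjusted p belonged to Hoxd1, the most 3′ gene of its cluster. It had 6.44, 5.82, 4.76 and 5.44 CPM in Intact and 2.79, 1.59 and 1.93 CPM in sub-SCI (log2 fold change -1.41, SE 0.31, adjusted p = 0.000480). Hoxb2 went the other way, with 9.28, 11.3, 13.2 and 12.05 CPM in Intact and 14.9, 16.02 and 16.5 CPM in sub-SCI, and the groups did not overlap (log2 fold change 0.46, SE 0.16, adjusted p = 0.0189). Without sub-SCI replicate 3 the Hoxb2 call was lost (0.43, adjusted p = 0.0579), and so was that of Hoxd9 (-1.37, adjusted p = 0.0872), which also missed the threshold without sub-SCI replicate 1 (-1.75, adjusted p = 0.0513).

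Other members of the anterior and middle code showed no call at this depth with all libraries in the fit. Hoxb3 averaged 31.00 ± 2.25 CPM in Intact and 27.3 ± 5.898 CPM in sub-SCI (log2 fold change -0.18, SE 0.20, adjusted p = 0.456). Hoxb4 averaged 8.29 ± 1.29 and 10.5 ± 1.74 CPM (log2 fold change 0.34, SE 0.19, adjusted p = 0.118). Hoxb7 was lower in each sub-SCI library (17.99, 16.6 and 17.3 CPM) than in any Intact library (21.6, 19.5, 26.5 and 23.3 CPM), yet missed the threshold (log2 fold change -0.39, SE 0.18, adjusted p = 0.0687). Without +PBS-4w replicate 1, which enters through the scaling and the shared spread, Hoxb7 (log2 fold change -0.33, adjusted p = 0.0246) and Hoxb4 (log2 fold change 0.40, adjusted p = 0.04798) passed the test. The log2 fold changes of the 6 tested HoxC genes ran from -1.27 for Hoxc10 to 0.43 for Hoxc5. Hoxc10 was below all Intact libraries in every sub-SCI library. It passed without sub-SCI replicate 2 (log2 fold change -1.86, adjusted p = 0.0236) or 1 of 3 libraries of other groups. Hoxc8 passed as lower without sub-SCI replicate 3 (log2 fold change -0.66, adjusted p = 0.0300).

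The same comparison with Intact was made for the PBS-treated rats; all 4 injury comparisons share the Intact libraries. At 1 wpt, 13 of 23 members fell and none rose by edgeR (also none at unadjusted p under 0.05), where 26.4% of all genes fell and 26.7% rose. Hoxc8, not among the 13, passed as lower without +PBS-1w replicate 3 (log2 fold change -0.83, adjusted p = 0.00503). At 2 wpt, with only 2 libraries, 5 fell (Hoxd1, Hoxb9, Hoxa7, Hoxb5 and Hoxd4) and none rose, beside 17% and 19.7% of all genes. At unadjusted p under 0.05, 2 rose, with no share of all genes to set beside them. At 4 wpt, 9 fell and 3 rose (Hoxc5, Hoxc6 and Hoxb2), beside 23.9% and 28.6%. The count at 2 wpt went to 0 without +PBS-2w replicate 1 and to 2 without +PBS-2w replicate 2, Intact replicate 1, Intact replicate 2 or Intact replicate 3. It also lay at 2 or 3 without 1 of several libraries of other groups, which enter through the shared spread. At 4 wpt it went to 4 without +PBS-4w replicate 2 or replicate 4 and to 5 without +PBS-4w replicate 3 or Intact replicate 2.

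Hoxd1 was below Intact in every PBS library. It had 1.78, 1.31 and 0.721 CPM at 1 wpt (log2 fold change -2.13, SE 0.32, adjusted p = 1.28e-05) and 2.82 and 2.25 CPM at 2 wpt (log2 fold change -1.15, SE 0.35, adjusted p = 0.01504). At 4 wpt it had 2.05, 0.776, 0.895 and 1.56 CPM (log2 fold change -2.08, SE 0.29, adjusted p = 5.29e-06). Hoxb9 was likewise below the Intact range in all 9 PBS libraries, with 4.16, 4.63 and 2.68 CPM at 1 wpt and 3.11 and 5.62 CPM at 2 wpt. At 4 wpt it had 4.51, 1.23, 1.43 and 3.21 CPM, with replicate 1 highest (log2 fold change -2.22, SE 0.40, adjusted p = 8.26e-05). Hoxd4 averaged 16.4 ± 1.702 CPM in Intact and 8.37 ± 1.14, 10.4 ± 0.403 and 9.16 ± 3.300 CPM in the PBS groups at 1, 2 and 4 wpt, with log2 fold changes of -0.97, -0.65 and -0.83. Hoxd3, its neighbour, averaged 11.6 ± 1.52 CPM in Intact and 5.703 ± 1.81 CPM at 4 wpt (log2 fold change -1.02, SE 0.24, adjusted p = 0.00143). Hoxd3 and Hoxd4 lie side by side, and with a library kit that does not mark strand their reads may not be fully separable. Hoxa7, at under 2 CPM throughout, averaged 0.761 ± 0.261 CPM in Intact and 0.213 ± 0.133 CPM in +PBS-1w (log2 fold change -1.85, SE 0.47, adjusted p = 0.00211).

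Hoxb8 in +PBS-4w was split. It had 62.4, 13.02, 17.3 and 19.7 CPM, so that replicate 1 lay among the Intact libraries and the other 3 lay below all of them (log2 fold change -1.20, SE 0.41, adjusted p = 0.0182). That call was lost without Intact replicate 1 (-1.02, adjusted p = 0.0601) and without +PBS-4w replicate 2, 3 or 4 (adjusted p = 0.06404, 0.0609 and 0.0565). Without +PBS-4w replicate 1 the difference was larger (log2 fold change -1.91, adjusted p = 9.14e-05). Hoxb5 (20.3, 8.29, 8.81 and 9.08 CPM) and Hoxb6 (23.1, 14.9, 14.99 and 14.5 CPM) had the same high replicate. Hoxb7 averaged 19.99 ± 6.93 CPM there and 22.7 ± 2.93 CPM in Intact, without a call (log2 fold change -0.18, SE 0.17, adjusted p = 0.381). Without +PBS-4w replicate 1 Hoxb7 passed the test (log2 fold change -0.40, adjusted p = 0.0101), as did Hoxd9 and Hoxc10.

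Hoxc5 and Hoxc6, genes of the cervical to anterior thoracic code, moved against the trend at 4 wpt. Hoxc5 had 3.77, 3.53, 5.92 and 3.46 CPM in Intact and 6.48, 15.3, 8.99 and 8.81 CPM in +PBS-4w, all above Intact (log2 fold change 1.25, SE 0.33, adjusted p = 0.00309). Hoxc6 had 9.495, 10.1, 12.6 and 10.5 CPM in Intact and 16.7, 23.9, 15.03 and 16.1 CPM in +PBS-4w, also without overlap (log2 fold change 0.75, SE 0.21, adjusted p = 0.004298). The earlier PBS groups averaged 5.09 ± 2.91 and 5.29 ± 0.558 CPM for Hoxc5 at 1 and 2 wpt. For Hoxc6 they averaged 11.4 ± 3.09 and 16.3 ± 1.31 CPM. Hoxc4, Hoxc5 and Hoxc6 are neighbours whose transcripts can share exons, so reads may not be fully separable among them. Hoxc4 did not pass the test at 4 wpt (log2 fold change 0.53, SE 0.30, adjusted p = 0.143). Hoxb2 averaged 15.3 ± 2.87 CPM in +PBS-4w against 11.5 ± 1.66 CPM in Intact (log2 fold change 0.42, SE 0.15, adjusted p = 0.0261), and its call was lost without Intact replicate 1 (adjusted p = 0.0557), +PBS-4w replicate 1 (adjusted p = 0.0519) or +PBS-4w replicate 2 (adjusted p = 0.0585).

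**Figure D2:**
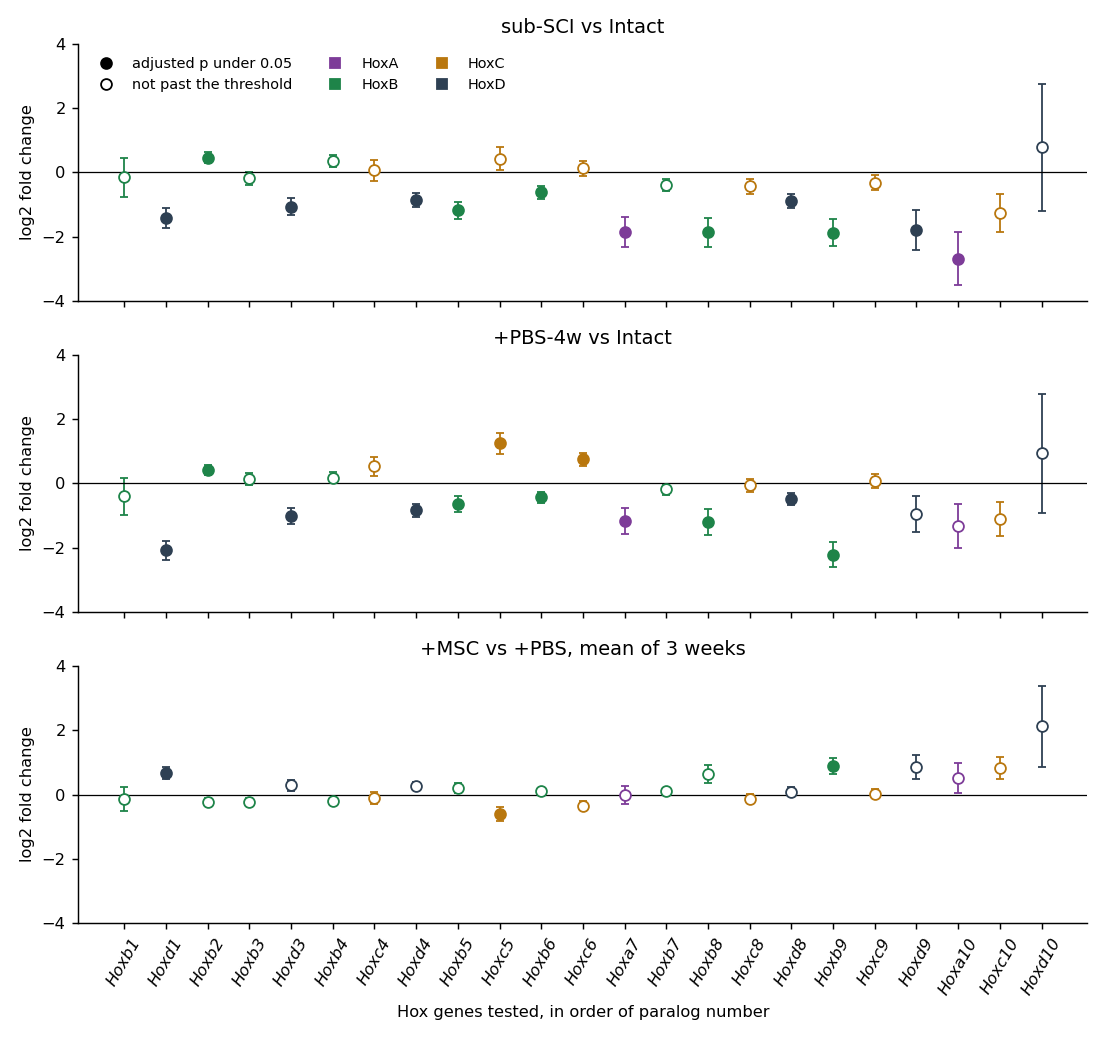
Log2 fold change of the 23 tested Hox genes by paralog number in sub-SCI against Intact, +PBS-4w against Intact and +MSC against +PBS averaged over 3 weeks; error bars are 1 SE, filled points have an adjusted p under 0.05 and colors mark the cluster. After injury 11 genes (sub-SCI) and 9 genes (+PBS-4w) lie below 0 as filled points, and in the lowest panel Hoxd1 and Hoxb9 lie above 0 and Hoxc5 below.

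Marker genes of other cells moved with these comparisons, where 30.9% of all genes fell and 30.5% rose in sub-SCI. In sub-SCI all 8 neuronal markers fell (median log2 fold change -2.95), and their summed level was 385 to 1837 CPM against 8285 to 10183 CPM in Intact. All 6 fibroblast markers rose (median 4.09), from a summed 41.4 to 879 CPM in Intact to 6531 to 13499 CPM, and all 6 markers of microglia and macrophages rose (median 3.56), from 248 to 406 CPM to 2624 to 3508 CPM. All 6 oligodendrocyte markers fell (median -1.14), as did 3 of 6 astrocyte and 3 of 4 ependymal markers, and 3 of 5 lymphocyte markers and 1 of 3 endothelial markers rose. None of 3 Schwann cell markers, none of 2 sensory ganglion markers and 1 of 3 markers of oligodendrocyte precursors (a rise) passed the test, and 2 of 3 skeletal muscle markers fell, with 1 Intact library at a summed 224 CPM. The Intact libraries were uneven. Schwann cell markers summed to 18.6 CPM in Intact replicate 1 and to 520 to 1169 CPM in the other Intact libraries. Fibroblast markers summed to 41.4 CPM in Intact replicate 1 and to 381 to 879 CPM in the others. No neuronal, fibroblast or macrophage marker was at 0 in all libraries. The part of these cell changes in the Hox differences was not tested.

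The question of the transplantation comparisons was whether hUC-MSCs changed the injured cord. No Hox gene passed the test in +MSC against +PBS at any single week by edgeR. At adjusted p under 0.05, 0.0389% of all genes were called higher and 0.0611% lower at 1 wpt, and 0% in either direction at 2 wpt. The shares at 4 wpt were 3.07% higher and 0.928% lower. At unadjusted p under 0.05, 5 Hox genes were higher and none lower at 1 wpt. By the same threshold none was higher and 1 lower at 2 wpt, and 1 was higher and 3 lower at 4 wpt. The share of all genes at unadjusted p was not computed, so these unadjusted counts have no background and are not a result about the members. DESeq2 on all libraries called 1 Hox gene higher at 1 wpt, where it called 2.16% of all genes higher, and 3 lower at 4 wpt, where it called 3.73% lower. Without +PBS-4w replicate 1 edgeR called Hoxd1 higher at 1 wpt (log2 fold change 1.25, adjusted p = 0.0354) and, at 4 wpt, Hoxb9 higher (log2 fold change 1.38, adjusted p = 0.0222) and Hoxc6 (log2 fold change -0.76, adjusted p = 0.0242) and Hoxc5 (log2 fold change -1.11, adjusted p = 0.0287) lower. The shares of all genes called at 4 wpt were then 9.63% higher and 7.46% lower, and 0.836% and 0.0557% without +MSC-4w replicate 1, the lowest of any library left out. When the 3 weeks were averaged, Hoxd1 and Hoxb9 rose and Hoxc5 fell, that is 2 and 1 of 23, where 12.3% of all genes rose and 10.9% fell. The latter shares dropped to 4.32% and 4.44% without +PBS-2w replicate 1. The effect of hUC-MSCs did not differ between weeks for any member past the threshold (interaction terms by edgeR, smallest adjusted p over members 0.999). At unadjusted p under 0.05, 4 members differed between 1 and 4 wpt, again without a share of all genes beside them.

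Hoxb9 had 7.12, 6.96 and 3.54 CPM in +MSC-1w, 15.8, 5.25 and 5.81 CPM in +MSC-2w and 6.17, 4.68, 4.29 and 5.59 CPM in +MSC-4w. The 4-week values lay above 3 of the 4 PBS libraries and overlapped the remaining one (log2 fold change 0.88, SE 0.26, adjusted p = 0.0176 over the 3 weeks). Hoxd1 had 3.396, 2.92 and 3.11 CPM in +MSC-1w, 3.63, 2.83 and 2.93 CPM in +MSC-2w and 1.51, 2.29, 1.72 and 1.51 CPM in +MSC-4w. It was above every PBS library of its week at 1 and 2 wpt and overlapped at 4 wpt (log2 fold change 0.67, SE 0.19, adjusted p = 0.0153). Hoxc5 had 4.96, 5.39 and 5.47 CPM, 3.63, 2.59 and 2.16 CPM and 3.22, 6.45, 6.69 and 4.39 CPM at the 3 weeks. Only the 2-week values were below all PBS libraries of the week (log2 fold change -0.60, SE 0.22, adjusted p = 0.0493). That call sat at the threshold and was lost in 15 of the 26 fits that each left out 1 library, with the highest adjusted p, 0.161, without +PBS-1w replicate 3. Hoxb9 lost its call without +MSC-2w replicate 1 (0.65, adjusted p = 0.0536) or +PBS-2w replicate 1 (0.74, adjusted p = 0.108). Without +PBS-4w replicate 1 the pooled counts became 7 higher and 2 lower, in a fit that called 16.5% of all genes higher and 18.1% lower. The 7 were Hoxd1, Hoxd9, Hoxd10, Hoxb9, Hoxb8, Hoxb5 and Hoxc10, the 2 were Hoxc6 and Hoxc5.

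**Figure D3:**
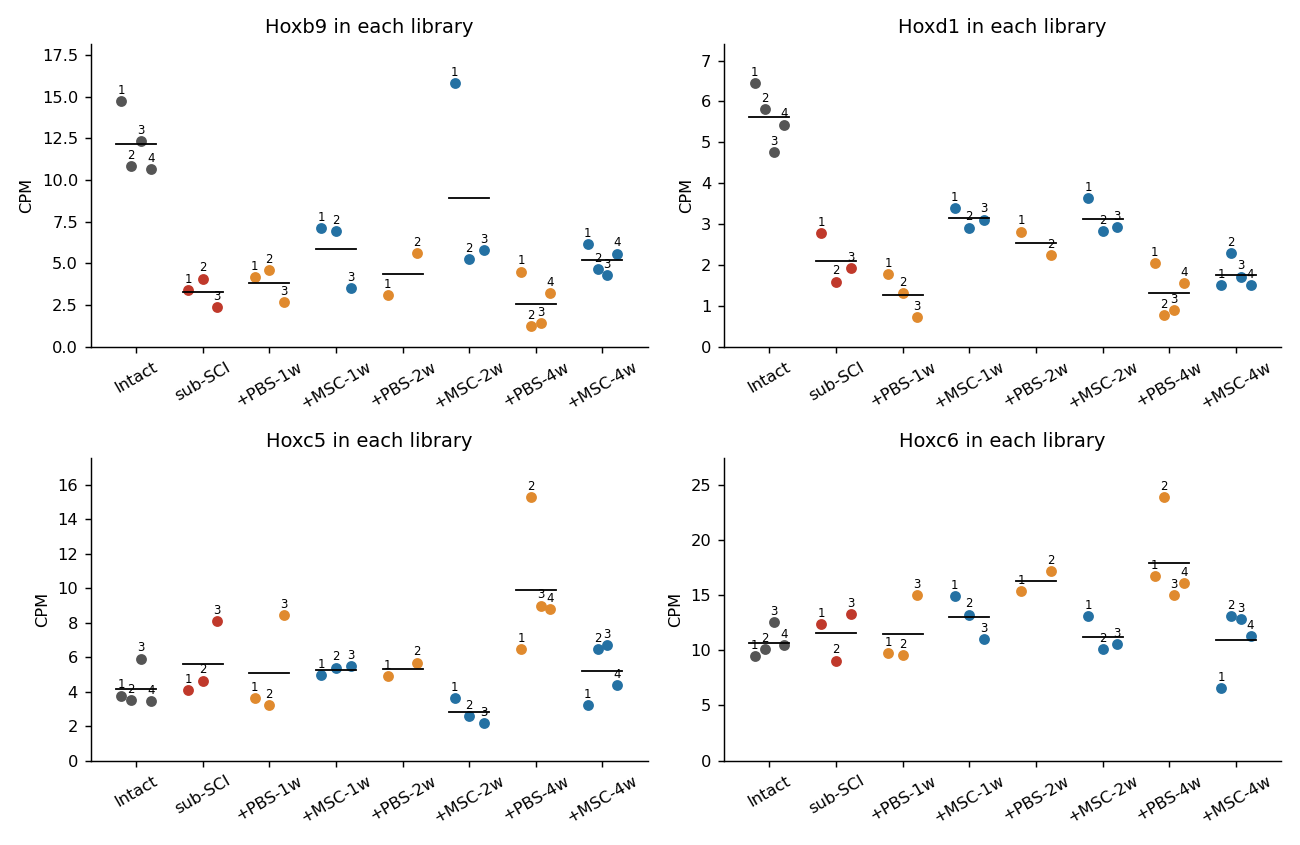
CPM of Hoxb9, Hoxd1, Hoxc5 and Hoxc6 in each of the 26 libraries by group; points carry the replicate number and black lines are group means. Every injured library but +MSC-2w replicate 1 lies below the Intact range for Hoxb9, and all 4 +PBS-4w libraries lie above Intact for Hoxc5 and Hoxc6.

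Of the members just short of the threshold over the 3 weeks, Hoxb8 averaged 37.8 ± 13.3, 47.9 ± 21.6 and 32.2 ± 9.25 CPM with hUC-MSCs and 20.5 ± 5.72, 26.5 ± 6.34 and 28.1 ± 23.04 CPM with PBS (log2 fold change 0.65, SE 0.27, adjusted p = 0.0938). Hoxc6 averaged 13.1 ± 1.98, 11.2 ± 1.595 and 10.97 ± 3.01 CPM with hUC-MSCs (log2 fold change -0.35, SE 0.14, adjusted p = 0.0665). At 4 wpt every +MSC library had less Hoxc6 (6.604, 13.1, 12.8 and 11.3 CPM) than any +PBS library, with an adjusted p of 0.05403. Hoxb2 also lay below all +PBS-4w libraries in +MSC-4w (9.71, 10.5, 11.8 and 12.4 CPM against 19.04, 16.2, 13.1 and 13.1 CPM), with an adjusted p of 0.0838. Over the 3 weeks 12.3% of all genes rose and 10.9% fell. Beside the 3 called members, 7 of 8 neuronal markers rose over the 3 weeks (median 1.00) and all 6 fibroblast markers fell (median -1.29), and 2 of 6 markers of microglia and macrophages fell. The part of these shifts was not tested.

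Hoxd10, which patterns the lumbar cord and its motor neurons, differed widely between libraries of the same group. It and Hoxd9 were picked out after their values were seen. Hoxd10 had 39 to 334 reads in 10 libraries, all above 1 CPM, and 0 to 10 reads in the other 16. Of these, 6 had 0 reads, where the limit of 3 reads corresponds to 0.0690 CPM in the deepest and 0.154 CPM in the shallowest library. Intact had 2.78, 0.0458, 0.0925 and 0.304 CPM and sub-SCI had 0, 4.06 and 0 CPM. In order of week, +PBS had 0, 0.298 and 0.4003 CPM, then 0.03201 and 4.500 CPM, then 5.74, 0.0706, 0.0447 and 0 CPM. +MSC had 10.04, 0.219 and 1.54 CPM, 11.1, 0 and 0 CPM and 0.0796, 5.92, 6.15 and 4.86 CPM. A single library of each of Intact, sub-SCI, +PBS-2w, +MSC-2w and +PBS-4w was above 1 CPM, 2 of +MSC-1w, 3 of +MSC-4w and none of +PBS-1w. With all libraries no comparison between groups passed the test, and the errors were wide (for +MSC over 3 weeks, log2 fold change 2.12, SE 1.25, adjusted p = 0.233). Without +PBS-4w replicate 1 the value over 3 weeks grew and passed (log2 fold change 3.77, adjusted p = 0.0391).

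The neighbours of Hoxd10 in order and number followed it. Hoxd9 had 24.4, 16.2, 18.8 and 18.7 CPM in Intact and 5.26, 9.895 and 1.76 CPM in sub-SCI (log2 fold change -1.79, SE 0.62, adjusted p = 0.0168). In +PBS-4w it had 24.8, 5.54, 6.22 and 3.58 CPM and in +MSC-4w 8.91, 13.9, 17.00 and 15.2 CPM, so that +PBS-4w replicate 1 stood with Intact. The library with the most Hoxd10 also had the most Hoxd9 in 7 of the 8 groups and the most Hoxc10 in 6. Hoxc10, the lumbar gene of the HoxC cluster, had 40.8, 22.5, 21.3 and 24.6 CPM in Intact, 9.21, 18.99 and 5.83 CPM in sub-SCI and 5.29, 12.8 and 10.2 CPM in +PBS-1w. It had 25.6, 12.3, 7.56 and 5.37 CPM in +PBS-4w and 12.2, 22.8, 21.7 and 23.7 CPM in +MSC-4w. Its fall in +PBS-1w (log2 fold change -1.54, SE 0.59, adjusted p = 0.0324) was lost without Intact replicate 1 (adjusted p = 0.104), +PBS-1w replicate 1 (adjusted p = 0.1301) or +PBS-1w replicate 3 (adjusted p = 0.0704). Hoxd11, next to Hoxd10, was counted in 6 libraries, all of them among the 10 with Hoxd10 above 1 CPM.

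The same libraries differed in cell markers and in number. The library with the most Hoxd10 also had the highest mean log2 level of neuronal markers in 6 of 8 groups, the most Hoxb8 in 6 and the most Hoxb9 in 6, and the lowest mean log2 level of fibroblast markers in 4. In 2 groups it had the least Hoxb8 and the least Hoxb9, and in 2 the highest level of fibroblast markers. Its level of dorsoventral homeobox genes was the highest in 4 groups and the lowest in 2. In +PBS-4w the neuronal markers summed to 5572 CPM in replicate 1 and to 1426 to 1987 CPM in replicates 2 to 4. Of the 8 libraries, 4 were labelled replicate 1. In +MSC-4w, however, replicate 1 had the least Hoxd10 and the highest mean log2 level of neuronal markers, though not the highest sum. The part of lesion size, cell makeup, replicate set and level of the cut in these differences was not tested.

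**Figure D4:**
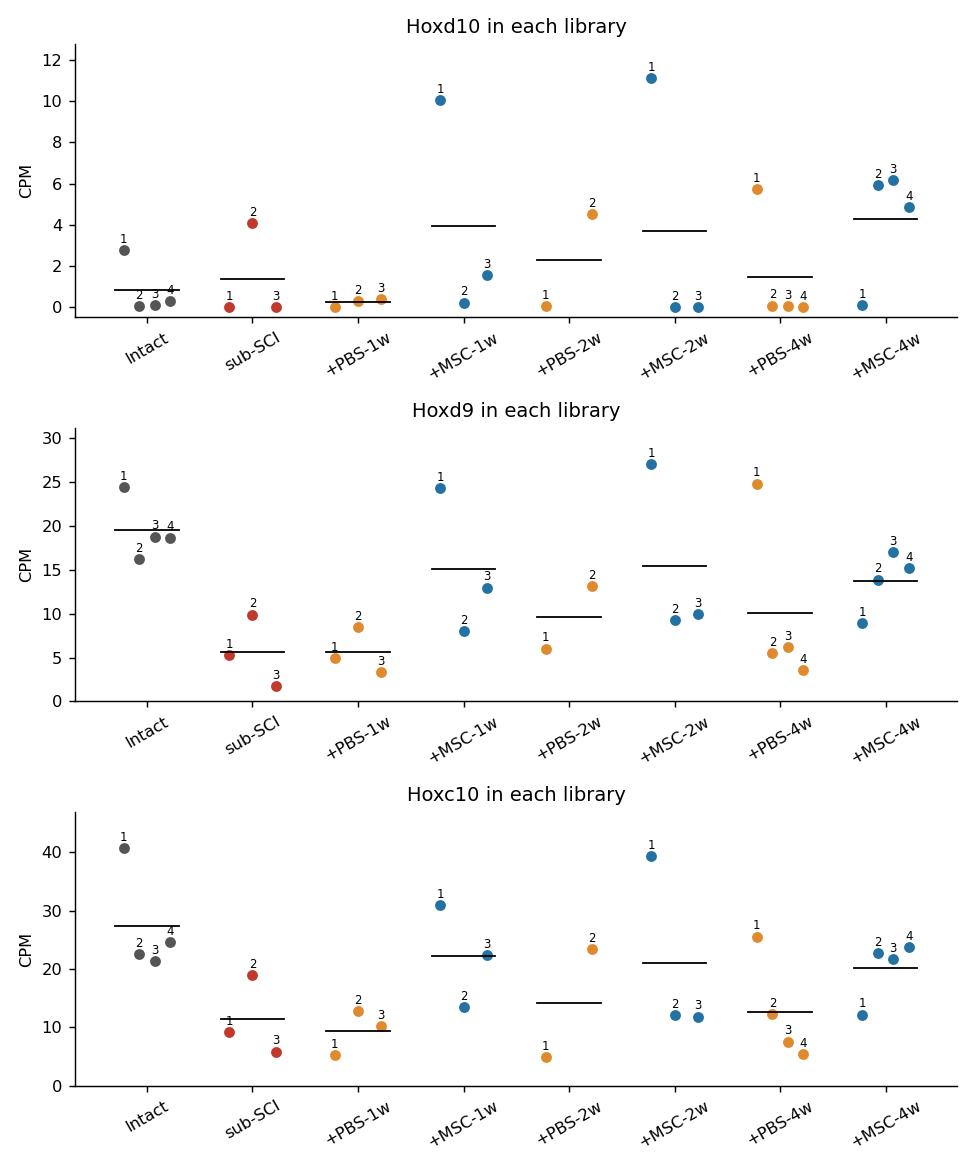
CPM of Hoxd10, Hoxd9 and Hoxc10 in each of the 26 libraries by group; points carry the replicate number and black lines are group means. Hoxd10 is above 1 CPM in 10 libraries spread over 7 groups, and the same libraries tend to be the highest of their group for Hoxd9 and Hoxc10.

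The promoters of Hoxd9, Hoxd10 and Hoxd11, neighbours in the HoxD cluster, are shown (RefSeq, GRCr8, 250 bases before to 50 after the start, plus strand). The counts were made on Rnor6. Hoxd9 was mostly highest where Hoxd10 was, and Hoxd11 was counted only where Hoxd10 was above 1 CPM. Hoxd11 had few reads and was not tested, with 0 reads in +PBS-4w replicate 1, where Hoxd10 had 154. Capitals mark CACGTG, a motif of the E-box kind that was noticed in these sequences and then searched.
Hoxd9, chr3:80007756-80008055: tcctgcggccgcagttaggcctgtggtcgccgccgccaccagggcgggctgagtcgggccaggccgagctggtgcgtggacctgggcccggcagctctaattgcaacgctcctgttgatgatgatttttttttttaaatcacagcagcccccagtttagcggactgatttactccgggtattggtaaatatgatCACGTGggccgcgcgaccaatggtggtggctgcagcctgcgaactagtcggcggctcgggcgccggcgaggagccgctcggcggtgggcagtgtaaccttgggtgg
Hoxd10, chr3:80001697-80001996: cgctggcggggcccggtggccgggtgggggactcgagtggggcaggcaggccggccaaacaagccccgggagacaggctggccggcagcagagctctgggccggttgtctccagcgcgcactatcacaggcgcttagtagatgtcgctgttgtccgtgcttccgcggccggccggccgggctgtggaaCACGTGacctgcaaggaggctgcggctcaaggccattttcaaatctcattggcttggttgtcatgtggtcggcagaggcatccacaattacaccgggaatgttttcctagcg
Hoxd11, chr3:79992144-79992443: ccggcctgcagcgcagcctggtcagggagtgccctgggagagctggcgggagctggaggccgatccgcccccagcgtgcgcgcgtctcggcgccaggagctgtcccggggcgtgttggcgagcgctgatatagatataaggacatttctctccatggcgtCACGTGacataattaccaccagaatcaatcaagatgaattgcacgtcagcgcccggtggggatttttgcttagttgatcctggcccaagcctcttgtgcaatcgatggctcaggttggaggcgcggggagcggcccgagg

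Each held CACGTG once, starting at base 195, 189 and 161 of the window, without overlap with the other motifs searched. Of the 21 promoter entries for 20 Hox genes, 8 held it on either strand (Hoxd11, Hoxd10, Hoxd9, Hoxd3, Hoxd1, Hoxa4, Hoxa7 and Hoxa9), against 6.42% of all 33469 promoters of 300 bases. The motif was picked from the Hoxd9, Hoxd10 and Hoxd11 sequences, so those matches were fixed beforehand and the share is no test. TTTATG, the core bound by CDX proteins, was in 2 of the 21 (Hoxd4 and Hoxa9) and in 12.7% of all promoters. TGATTNAT, a motif of paired PBX and HOX proteins, was in 2 (Hoxd11 and Hoxa2) and in 3.18% of all. A match is a description of letters and not a bound site.

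The axial profile was summarized as the mean paralog number, weighted by per-kilobase level, in each library. Intact gave 7.08, 6.78, 6.702 and 6.71, and sub-SCI gave 6.13, 6.38 and 5.86, all below Intact. In order of week, the PBS groups gave 6.21, 6.24 and 6.02, then 6.14 and 6.52, then 6.77, 5.905, 6.08 and 6.21. The +MSC groups gave 6.73, 6.38 and 6.59, then 6.99, 6.53 and 6.52, then 6.58, 6.64, 6.67 and 6.75, in order of week. At 1 wpt each +MSC library was above each +PBS library, at 2 wpt the lowest +MSC value and the higher +PBS value were about equal, and at 4 wpt +PBS replicate 1 was above all +MSC libraries and the other 3 below them. The share of paralogs 1 to 4 was 17.6% ± 1.33 in Intact, 28.2% ± 3.13 in sub-SCI (SD, n = 3), 25.1% ± 5.96 in +PBS-4w (n = 4) and 20.8% ± 1.11 in +MSC-4w (n = 4). That of paralogs 9 to 13 was 12.8% ± 3.72, 11.9% ± 2.90 and 18.0% ± 2.78 in the same 3 groups. These are descriptions without a test.

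**Figure D5:**
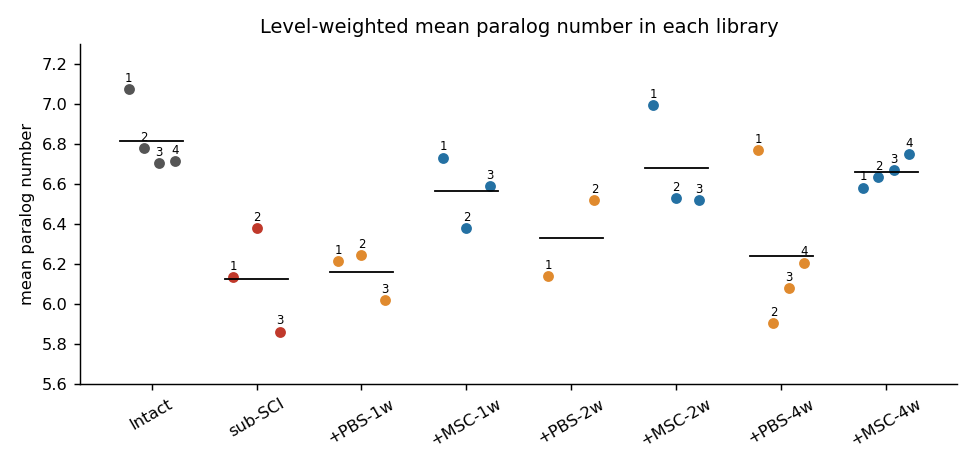
Mean paralog number weighted by CPM per kilobase in each of the 26 libraries by group; points carry the replicate number and black lines are group means (the axis does not start at 0). Intact lies at 6.70 to 7.08, sub-SCI at 5.86 to 6.38, and 1 of the 4 +PBS-4w libraries, at 6.77, stands with the +MSC-4w libraries and Intact.

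Within groups, the members' deviations from the group means were compared for the 19 tested genes with a mean above 1 CPM other than Hoxd10, as a description over the 26 libraries, which all pairs share. The median Pearson correlation was 0.30 for the 48 pairs at most 1 paralog number apart, 0.30 for 77 pairs 2 to 4 apart and 0.27 for 46 pairs 5 or more apart. Hoxb8 and Hoxb9 (0.87), Hoxd9 and Hoxc10 (0.86) and Hoxc8 and Hoxc9 (0.84) had the highest values. Hoxb8 and Hoxc5 had the lowest (-0.60).

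Genes that work with or act on Hox genes were read from lists. Of 9 TALE homeodomain cofactors, which bind DNA beside Hox proteins, 3 rose in sub-SCI and 3 fell (median log2 fold change -0.40), shares near the 30.5% and 30.9% of all genes given above. Meis3 rose (log2 fold change 1.79, SE 0.21, adjusted p = 3.50e-07), with Pbx2 and Pknox1, and Meis2 fell (log2 fold change -1.43, SE 0.17, adjusted p = 3.99e-07), with Meis1 and Pknox2. Over the 3 weeks of +MSC against +PBS, 1 rose and 2 fell (median -0.04), where 12.3% of all genes rose and 10.9% fell. Meis2 rose (log2 fold change 0.36, SE 0.10, adjusted p = 0.0175), and Meis3 (log2 fold change -0.48, SE 0.13, adjusted p = 0.0133) and Pbx2 fell. Of 17 axial patterning signals and factors 13 were tested, and 7 rose and 1 fell in sub-SCI (median 0.87), beside 30.5% and 30.9% of all genes. The retinoic acid receptors Rara and Rarg were among those that rose. Gdf11, a signal of the trunk-to-tail transition, fell (log2 fold change -0.78, SE 0.14, adjusted p = 4.84e-05). With hUC-MSCs 5 of the 13 fell and none rose (median -0.64), beside 10.9% and 12.3% of all genes. Among those that fell were Aldh1a2, an enzyme of retinoic acid synthesis (log2 fold change -1.40, SE 0.32, adjusted p = 0.00432), and Rara.

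Of 18 chromatin regulators of the Hox clusters, 5 rose and 3 fell in sub-SCI (median 0.10), shares no higher than those of all genes, so the genes named here are single values and not a result of the list. Ezh2, the Polycomb methyltransferase of dividing cells, rose (log2 fold change 1.09, SE 0.14, adjusted p = 7.77e-07), with Rnf2 and Eed. Its paralog Ezh1 fell (log2 fold change -0.72, SE 0.09, adjusted p = 6.53e-07), with Cbx7. Over the +MSC weeks only Rnf2 passed, a fall (log2 fold change -0.25, SE 0.07, adjusted p = 0.0174). Of 14 homeobox genes that set the dorsoventral neuron classes of the cord 13 were tested, and 10 fell in sub-SCI (median -2.56) and 7 rose with hUC-MSCs (median 0.92). Of all genes, 30.9% fell in sub-SCI and 12.3% rose with hUC-MSCs. Pax2, of inhibitory interneurons, fell (log2 fold change -3.16, SE 0.39, adjusted p = 4.59e-07) and then was higher with hUC-MSCs (log2 fold change 1.28, SE 0.22, adjusted p = 0.000747). Among the 4 tested forebrain and midbrain factors, all at low level, Neurod6 and Dmbx1 fell in sub-SCI and Neurod6 rose with hUC-MSCs.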

How the data were processed

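Bulk poly(A) RNA-seq of 26 rat cord segments in 8 groups was used, with groups and replicate numbers from the sample labels. Per the study's methods, the authors trimmed reads with Trim Galore 0.5.0, removed human reads, aligned to Rnor6 with HISAT2 2.1.0, kept properly paired reads with SAMtools 1.9 and counted with featureCounts 1.6.4; the submitters' processing notes name the same tools. The strand setting is not given in the sources used here. The deposited values are raw read counts per gene (19496602 to 43468509 per library), and the joint table equals the 26 single-library files.

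Counts were filtered with filterByExpr, scaled by TMM and tested with edgeR 4.0.16 (quasi-likelihood, all 26 libraries, 8 groups, no covariates, R 4.3.3), with Benjamini-Hochberg adjustment over 17990 genes. CPM use TMM-scaled totals. On simulated counts for sub-SCI against Intact (17702 genes), 43 of 100 genes changed by log2 1 and 83 of 100 changed by log2 2 were recovered, with 4 false calls. For +MSC-2w against +PBS-2w (17714 genes) 28 and 67 were recovered, with 5 false calls. Alternatives were DESeq2 1.42.0, other filters, scaling, thresholds, a replicate block and leaving out libraries. The floors given for 0 reads cover counting error only.

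Named genes were the highest per-kilobase member of each paralog number in Intact and up to 3 called members per direction and comparison by adjusted p; list genes were up to 3 called per direction in sub-SCI against Intact and +MSC against +PBS. A few list genes and 1 member are counted but not named here. The members and lists were chosen with earlier results of these data known. Promoters were matched by symbol to RefSeq (GRCr8) for 20 Hox genes; neighbours were read from RefSeq too.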

Additional observations from a re-analysis of the deposited data

Results flagged for a closer look

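For groups of 4 libraries (Intact, +PBS-4w and +MSC-4w), each tested member was examined for a library that stood far from the other 3, judged by its gap to the nearest as a share of the group's range. Of 69 combinations of gene and group 8 passed the limit, where chance gives about 1 in 20, that is 3.45. Of these, 5 were in +PBS-4w replicate 1, which stood above the other 3 libraries. Hoxd10 in Intact replicate 1 had 2.78 CPM, and the other 3 libraries had 0.0458 to 0.304 CPM. Hoxc10 in Intact replicate 1 had 40.8 CPM, and the other 3 libraries had 21.3 to 24.6 CPM. Hoxc5 in Intact replicate 3 had 5.92 CPM, and the other 3 libraries had 3.46 to 3.77 CPM. Hoxd9 in +PBS-4w replicate 1 had 24.8 CPM, and the other 3 libraries had 3.58 to 6.22 CPM. Hoxd10 in +PBS-4w replicate 1 had 5.74 CPM, and the other 3 libraries had 0 to 0.0706 CPM. Hoxb8 in +PBS-4w replicate 1 had 62.4 CPM, and the other 3 libraries had 13.02 to 19.7 CPM. Hoxb6 in +PBS-4w replicate 1 had 23.1 CPM, and the other 3 libraries had 14.5 to 14.99 CPM. Hoxb5 in +PBS-4w replicate 1 had 20.3 CPM, and the other 3 libraries had 8.29 to 9.08 CPM. No interaction between week and treatment passed the test for a member.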

How the results depend on the processing

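No called member changed direction under any alternative run, and 1423 of 1615 refits of called members kept the call. Reading counts as higher, then lower, leaving out each library in turn gave ranges of 0 to 2 and 10 to 13 Hox genes in sub-SCI, 0 to 0 and 9 to 13 in +PBS-1w, 0 to 2 and 0 to 6 in +PBS-2w and 2 to 3 and 4 to 12 in +PBS-4w, all against Intact. For +MSC against +PBS they were 0 to 1 and 0 to 0 at 1 wpt, 0 to 1 and 0 to 2 at 4 wpt, and 1 to 7 and 0 to 2 over 3 weeks, with none called at 2 wpt. With the adjusted p under 0.01 and log2 fold change above 1, the counts were 0 and 7 in sub-SCI, 6 lower in +PBS-1w, 0 lower in +PBS-2w, 1 and 3 in +PBS-4w and 0 and 0 over the +MSC weeks. Without all replicate 1 libraries they were 2 higher in sub-SCI, 1 higher in +PBS-1w, 1 and 0 in +PBS-2w, 4 higher in +MSC-4w and 1 and 2 over 3 weeks. The shares of all genes called moved as well, and without those libraries they were 7% higher and 3.58% lower in +MSC-4w. Leaving out 1 library, the share called higher ran from 0.836% to 9.63% in +MSC-4w and from 4.32% to 16.5% over 3 weeks, and the share called lower from 0.0557% to 7.46% and from 4.44% to 18.1%. In +PBS-2w these were 9.63% to 24.4% higher and 3.28% to 20.4% lower. DESeq2 gave 1 higher in +PBS-2w with all libraries or the compared groups, 1 and 3 higher in +MSC-1w, and, with all libraries, 3 lower in +MSC-4w and 2 lower over 3 weeks. With only the compared groups edgeR gave 1 higher in +PBS-2w, 5 lower in +PBS-4w and 0 lower over 3 weeks. Without a filter it gave 2 lower in +PBS-2w and 0 over 3 weeks, and with 10 counts in every library 1 higher and 3 lower in +PBS-2w, 1 lower in +MSC-4w and 2 lower over 3 weeks. A term for replicate 1 gave 1 higher in +PBS-2w and +MSC-1w and 1 lower in +MSC-4w. The labels name no pairing by replicate number, so the main fit held none, and whether the numbers mark a shared set was not tested. Same-numbered +MSC and +PBS libraries of 1 week had correlations of -0.08 to 0.23 (9 pairs, 4 above 0.1), and 10 of 18 libraries correlated best with their own number. Same-numbered Intact and sub-SCI or +PBS libraries had -0.06 to 0.25 (12 pairs, 6 above 0.1). Replicate 1 libraries of any 2 groups were above 0.1 in 18 of 28 pairs (median 0.17). Same-numbered libraries of replicates 2 to 4 were so in 13 of 52 (median 0.03). The replicate block gave 1 higher in +MSC-1w. Where a cause is not plain from fewer samples or genes, the cause was not tested. The mean paralog number moved by over 1 SD in 13 of 24 group values under other weights, and in 0 of 26 when 1 library was left out. Its group means were highest in Intact under the main weights, as CPM and without Hoxb8, but not with log weights. With log weights all +MSC groups were above Intact (6.260), at 6.263, 6.277 and 6.355 in +MSC-1w, +MSC-2w and +MSC-4w. Depth left 14 members untested, and 2 libraries in +PBS-2w limit that week.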
